A study of Macaca mulatta with 24 samples.

Results

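The genes described here are members of the BCL2 family, the proteins that decide whether a damaged cell keeps its mitochondria intact or dies. They were measured in whole blood of rhesus macaques before and after total body irradiation. Members were chosen by name: every probe on the array that carried 1 of 10 gene symbols was taken. Of the 10 genes, 9 had a probe (BCL2, BCL2L1, MCL1, BCL2A1, BAK1, BID, BIK, BMF and BCL2L11), 14 probes in all, out of 15046 named genes and 43603 probes; PMAIP1 was not analysed here. All 14 probes passed the filter on dim probes, which 27133 probes of the array passed.

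In all, 24 one-colour arrays were hybridised, each with RNA of 1 blood sample: 7 taken before irradiation (0 Gy, 4 males and 3 females), 4 on day 3 (3 males and 1 female), 6 on day 5 (4 males and 2 females) and 7 on day 7 (4 males and 3 females) after 4 Gy to the whole body. The animals were adult Chinese-origin rhesus macaques with no genetic change, each followed over time, and a replicate number was taken to stand for 1 animal. These arrays hold no group that was bled without irradiation, so the passage of time and repeated bleeding cannot be told apart from the dose. The labels name X-rays as the source and the study's methods name cobalt gamma rays. Globin RNA was removed from every sample before labelling. Between 48.3% and 61.2% of probes were well above background on an array. The arrays were scanned in 2 sessions that did not hold the groups evenly: 6 of the 7 pre-irradiation arrays and 6 of the 7 day 7 arrays were in session 1, while all day 3 and day 5 arrays were in session 2 with replicate 5 of the other groups.

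BCL2, BCL2L1 (the gene of BCL-XL), MCL1 and BCL2A1 encode survival proteins that hold the death effectors of the family in check on the outer mitochondrial membrane. BAK1 encodes such an effector, which opens that membrane and lets cytochrome c out. BID, BIK, BMF, BCL2L11 (the gene of BIM) and PMAIP1 (the gene of NOXA) encode BH3-only proteins, the sensors that bind the survival proteins or switch on the effectors. In blood, different cells depend on different survival proteins: BCL-XL is known for keeping platelets and maturing red cells alive, MCL1 for granulocytes and progenitors, and BCL2 for resting lymphocytes.

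Levels are those of single oligonucleotides, so the sequences the results turn on are shown first, as the scanner output gives them, 5′ to 3′, each 60 bases long. Positions are those of the array's design on the build rheMac2. The probes of BCL2, the dimmer probe of BCL2L1 and the probe of BID are the coding-sequence probes of the genes that passed a test. The BCL2 probe lies at chr18:56699743-56699802 on the minus strand, the BCL2L1 probe at chr10:32850643-32850702 on the plus strand and the BID probe at chr10:62437027-62437086 on the minus strand.
BCL2: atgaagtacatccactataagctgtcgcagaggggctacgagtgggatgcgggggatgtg
BCL2L1, dimmer probe: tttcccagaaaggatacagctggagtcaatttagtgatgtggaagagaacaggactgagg
BID: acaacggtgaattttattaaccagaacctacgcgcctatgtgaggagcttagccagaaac
The BCL2 and BCL2L1 probes lie near the start of the coding sequence, in the part that encodes the BH4 stretch found in survival proteins. The brighter BCL2L1 probe starts at base 1935 of the transcript, against base 395 for the dimmer one, and the starts of the 2 lie 59.8 kb apart on the chromosome.

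For 2 further genes the sequence shows what a pair of probes can and cannot say. The BMF probes, at chr7:18435233-18435292 and chr7:18435228-18435287 on the minus strand, share 55 of their 60 bases and differ only by a shift of 5 bases (capitals mark the 5 that the other lacks), so they are near repeats of 1 measurement.
BMF, brighter probe: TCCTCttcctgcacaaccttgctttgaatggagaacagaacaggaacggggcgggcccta
BMF, dimmer probe: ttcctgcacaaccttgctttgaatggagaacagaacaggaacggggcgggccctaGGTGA
The dimmer BAK1 probe ends at the stop codon of the coding sequence (in capitals) and has no position in the array's design. The brighter BAK1 probe was placed on chromosome 14 by the design, which is not the chromosome that carries BAK1 in the RefSeq gene table of the current rhesus assembly, so what it measures is uncertain.
BAK1, dimmer probe: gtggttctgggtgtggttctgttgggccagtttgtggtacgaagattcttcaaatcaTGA

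Levels below are log2 normalized signals, in which a step of 1 is a doubling, and changes are differences of group means on that scale with their standard error (SE). A change is called at an adjusted p under 0.005 in limma with Benjamini-Hochberg adjustment over all probes tested, the threshold of the study. Where a gene had 2 probes they are named by their brightness over the 24 arrays. Levels of different probes are not compared with each other. In whole blood, fewer cells of a type and less RNA per cell cannot be told apart.

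Against pre-irradiation, 3 of the 14 probes were called on day 3 (1 higher, 2 lower), 3 on day 5 (1 higher, 2 lower) and 2 on day 7 (both lower). Of all probes tested, 13.5% were called on day 3 (5.43% higher, 8.03% lower), 16.7% on day 5 (7.15% higher, 9.59% lower) and 10.9% on day 7 (3.6% higher, 7.28% lower). For 14 probes, the counts found lie within about 1 probe of these shares, so they say nothing particular about the family. The called genes were BCL2L1, lower on every day, BID, higher on day 3, and BCL2, higher on day 5. The median change of the 14 probes was 0.51 on day 3, 0.45 on day 5 and -0.06 on day 7, against 0.02 on each day over all probes tested. The changes were positive in 12, 11 and 7 of the 14 probes.

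**Figure D1:**
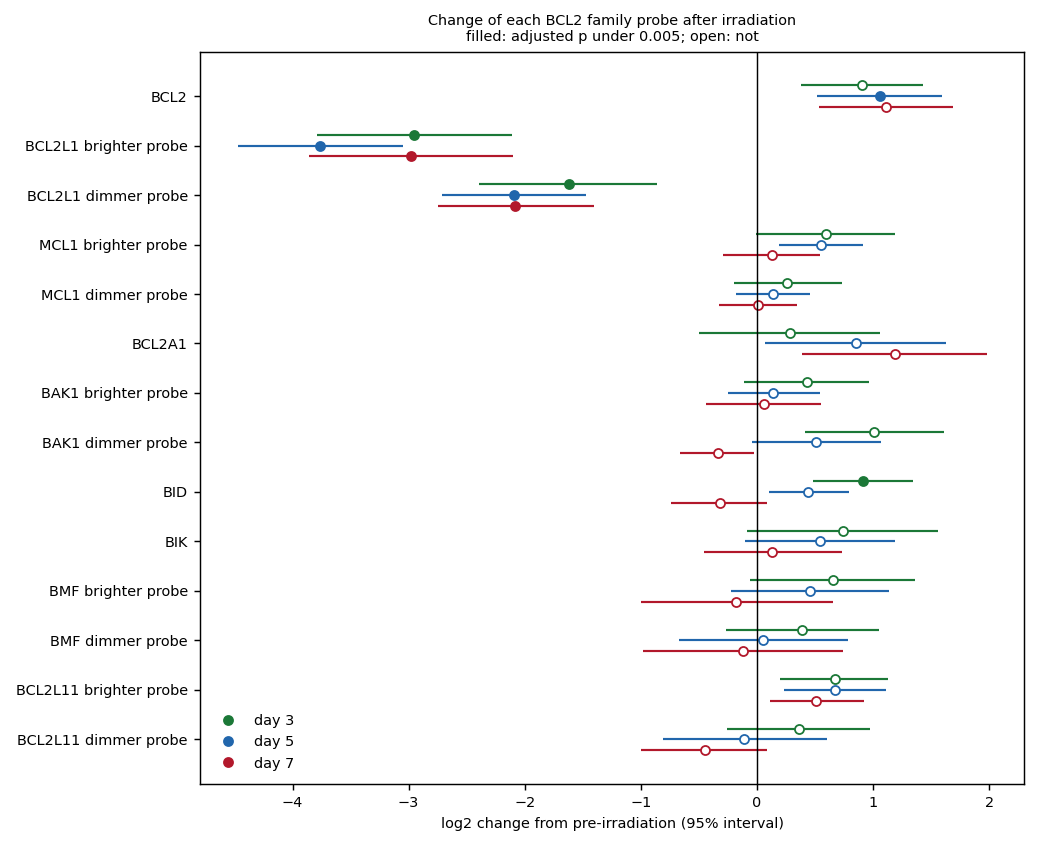
Log2 change of each of the 14 probes from pre-irradiation (x axis), with its 95% interval, on day 3 (green), day 5 (blue) and day 7 (red); filled points passed an adjusted p under 0.005 in limma. Both BCL2L1 probes lie far to the left on all days, between -3.76 and -1.62, while BID and the dimmer BAK1 probe move from right of 0 on day 3 to left of 0 on day 7.

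BCL2L1 was the member that changed most. Its brighter probe ranged from 11.34 to 13.59 before irradiation (median 11.74), read 8.80, 8.87, 9.11 and 9.44 on day 3, 7.94 to 8.91 (median 8.16) on day 5 and 8.21 to 10.62 (median 8.65) on day 7. No irradiated sample reached the lowest pre-irradiation sample, and every animal was lower than itself before irradiation. The level fell by 2.95 ± 0.38 on day 3 (SE; n = 4 against 7; limma adjusted p = 0.000346), a signal 7.73-fold lower. On day 5 it fell by 3.76 ± 0.33 (n = 6 against 7; limma adjusted p = 2.69e-06), 13.6-fold lower. On day 7 it fell by 2.98 ± 0.41 (n = 7 against 7, limma adjusted p = 0.00013), 7.91-fold lower. The day 3 call held in 14 of 17 alternative settings, with changes of -3.69 to -2.57. The day 5 and day 7 calls held in all of theirs. Groups that do not overlap were found for 21.0% of all probes on day 3, 14.3% on day 5 and 8.49% on day 7.

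The order of the group means was day 5, day 7, day 3 and pre-irradiation, from low to high. The neighbours among the irradiated days did not pass the test against each other: day 7 lay 0.78 ± 0.36 above day 5 (limma adjusted p = 0.238), and day 7 and day 3 differed by -0.03 ± 0.42 (limma adjusted p = 0.967). Nor did the ends of their order, with day 5 at -0.81 ± 0.23 from day 3 (limma adjusted p = 0.21). On day 7 the animals spread out. Replicate 4 read 10.62 and replicate 5 read 9.89, while the other 5 animals lay between 8.21 and 8.68. In the ranking of all probes by change, the brighter probe was 203rd from the bottom of 27127 on day 3, 183rd of 27133 on day 5 and 242nd on day 7.

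The dimmer probe of BCL2L1, at the other end of the transcript, moved the same way. It lay at 6.95 to 9.13 before irradiation, 5.77 to 6.63 on day 3, 5.16 to 5.96 on day 5 and 4.98 to 6.46 on day 7, again without overlap. Its level fell by 1.62 ± 0.35 on day 3 (n = 4 against 7; limma adjusted p = 0.00468), by 2.09 ± 0.29 on day 5 (n = 6 against 7; limma adjusted p = 0.000122) and by 2.08 ± 0.32 on day 7 (n = 7 against 7; limma adjusted p = 0.00029). The falls were smaller than those of the brighter probe, and 1 array each on day 5 and day 7 was not well above background, so the size of the fall depends on the probe. The day 3 call held in 1 of 7 fits that left out 1 animal (-1.76 to -1.32) and was lost without the filter on dim probes (limma adjusted p = 0.00756). With the animal as a block the day 3 change was -1.85 and no longer called (limma adjusted p = 0.0147), and with another background correction (normexp) it was -0.65 (0.393), -0.36 (0.498) and -0.94 (0.174) on the 3 days. Over the 24 arrays the levels of the 2 probes had a Pearson r of 0.93, and of 0.732 once each group's mean was subtracted, a description of 2 probes on the same arrays.

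The fall of BCL2L1 went together with that of red cell precursor genes. Of 7 erythroid marker genes tested, 6 were called lower on day 3 and 7 on days 5 and 7. Their mean log2 signal lay at 14.20 to 15.80 before irradiation, 10.67 to 12.66 on day 3, 7.84 to 8.96 on day 5 and 7.11 to 13.06 on day 7. ALAS2, the enzyme that starts heme synthesis in red cell precursors, changed by -3.63, -8.06 and -4.96 on the 3 days (limma adjusted p = 1.87e-05, 6.9e-09 and 0.00229). EPB42, a protein of the red cell membrane skeleton, changed by -4.78, -8.16 and -5.85, and KLF1, the transcription factor of red cell genes, by -5.28, -8.07 and -5.53, each called on every day. EPB42 was well above background on 4 of 6 day 5 and 5 of 7 day 7 arrays, and KLF1 on 3 and 5. The size of these falls is therefore uncertain on days 5 and 7. SLC4A1, the anion exchanger of the red cell membrane, was not well above background on any day 5 array. The 3 highest erythroid values of day 7, at 13.06, 12.44 and 11.34, belonged to replicates 4, 5 and 2, which were also the 3 highest for the brighter BCL2L1 probe. Replicate 2, at 8.68, lay close to replicates 3 and 7 on that probe, at 8.65 and 8.60. The part of red cell precursors in the fall of BCL2L1 was not tested.

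The genes whose level followed the brighter BCL2L1 probe most closely over the 24 arrays, of 10652 compared, were MEIOB (Pearson r 0.978), FBXO7 (0.977), which encodes an F-box protein of a ubiquitin ligase, and SESN3 (0.976), which encodes a sestrin. After each group's mean was subtracted r was 0.877, 0.869 and 0.836, a description over arrays that share animals and scan sessions. MEIOB is known as a gene of meiosis.

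The platelet markers moved the other way on day 3. All 7 platelet markers were called higher on day 3, 1 on day 5 and 0 on day 7, when their median change was 0.08. Their mean signal was 10.07 to 11.41 before irradiation, 13.23 to 14.20 on day 3, 11.21 to 12.46 on day 5 and 10.37 to 12.07 on day 7. BCL2L1 was lower than before irradiation on the day 3 arrays on which the platelet markers were highest.

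**Figure D2:**
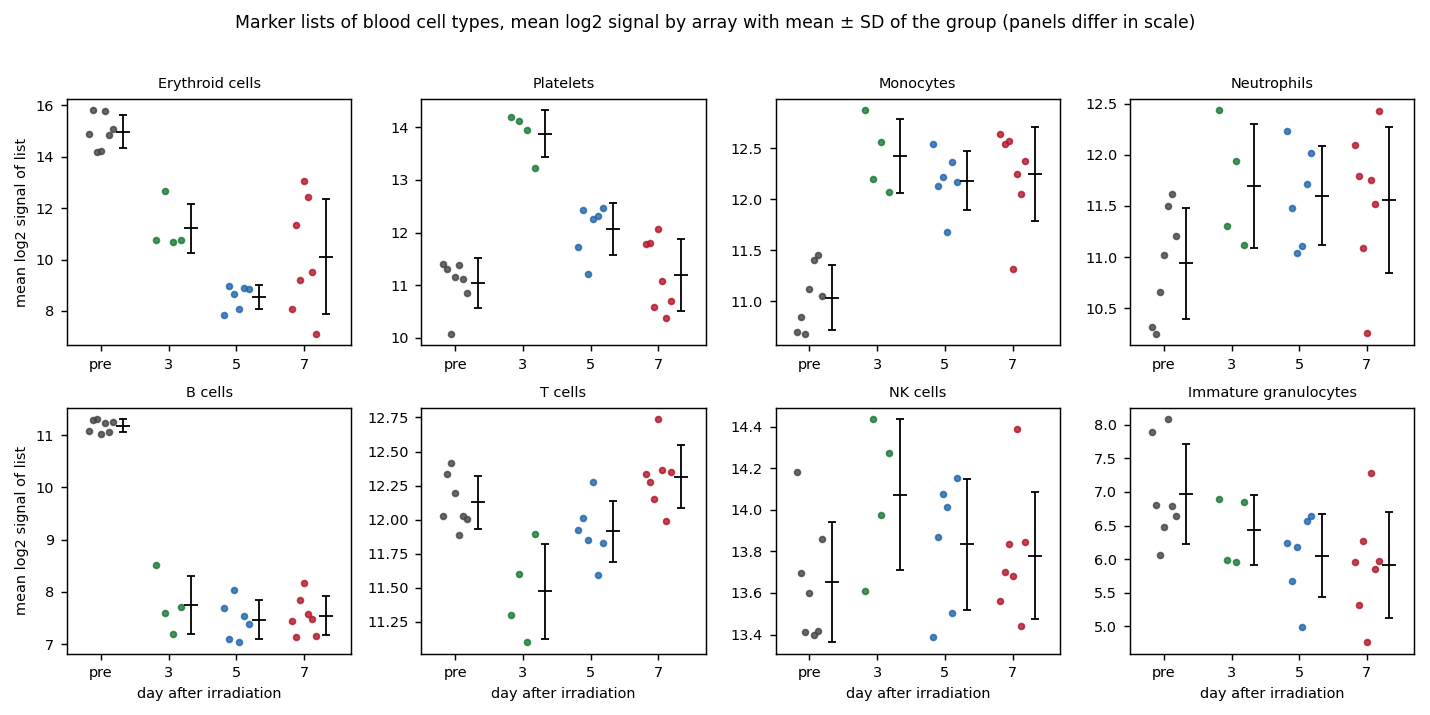
Mean log2 signal of the marker genes of 8 blood cell types (y axis) by group (x axis), with a point for each array and bars for mean ± SD. Erythroid markers drop from above 14 to below 9 on all day 5 arrays, platelet markers lie above 13 on all day 3 arrays, and B cell markers drop from about 11 to between 7.03 and 8.51 on all irradiated arrays.

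BCL2 itself had a higher mean level than before irradiation on each day. It read 6.52 to 7.42 before irradiation (median 6.79), 7.24, 7.66, 7.67 and 8.46 on day 3, 6.90 to 8.72 (median 7.97) on day 5 and 6.60 to 8.62 (median 8.15) on day 7. The groups overlapped on each day, by 1 array on days 3, 5 and 7. The change was 0.90 ± 0.24 on day 3 (n = 4 against 7; limma adjusted p = 0.013), 1.06 ± 0.25 on day 5 (n = 6 against 7; limma adjusted p = 0.00488) and 1.11 ± 0.27 on day 7 (n = 7 against 7; limma adjusted p = 0.00754). The day 3 difference was smaller in other fits, at 0.03 with slide as a block (limma adjusted p = 0.978), 0.34 with scan session as a block (0.678) and 0.39 with normexp (0.611). Only the day 5 change passed the threshold, as a 2.08-fold higher signal, and that call held in 2 of 7 fits that left out 1 animal (0.89 to 1.24). It was also lost in 1 fit of all 4 groups (limma adjusted p = 0.00758), where the day 7 change was called instead (limma adjusted p = 0.00478), without the filter on dim probes (limma adjusted p = 0.00885), with the session block (0.49; limma adjusted p = 0.587) and with normexp (0.60; limma adjusted p = 0.229), and held in 7 of 16 alternative settings. Against each other the irradiated days differed by 0.05 to 0.21.

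Replicate 4 stood apart: its BCL2 level went back from 7.66 on day 3 to 6.90 on day 5 and 6.60 on day 7, below its own 6.71 before irradiation, while the other 6 animals were higher than before on day 7. Without replicate 4 the day 7 change was 1.31 (limma adjusted p = 0.000673). Replicate 2 was the highest on days 3, 5 and 7 (8.46, 8.72 and 8.62), each time on its group's array of lowest median signal before scaling. The part of array brightness in this was not tested. All 7 B cell markers tested were called lower on each day. No T cell marker was called against pre-irradiation in limma. The mean signal of the list was 11.89 to 12.42 before irradiation and 11.10 to 11.89 on day 3. It was 11.59 to 12.27 on day 5 and 11.99 to 12.74 on day 7. The median changes of its genes were -0.5, -0.19 and 0.22 on days 3, 5 and 7. The genes most like BCL2 over the 24 arrays were LELP1 (Pearson r 0.913), FNIP2 (0.913), which encodes a folliculin partner, and EMILIN2 (0.876), which encodes a matrix glycoprotein. After each group's mean was subtracted r was 0.835, 0.837 and 0.816.

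MCL1, the short-lived survival protein, was measured by 2 probes and no change was called on either in limma at the settings used here. The brighter probe read 15.05 to 15.82 before irradiation, 15.25 to 16.80 on day 3, 15.58 to 16.29 on day 5 and 14.78 to 15.96 on day 7. Its change was 0.59 (95% interval -0.01 to 1.19) on day 3, 0.55 (0.19 to 0.91; limma adjusted p = 0.0196) on day 5 and 0.13 (-0.29 to 0.54) on day 7. These values depended on the scaling: with quantile normalization they were 0.95 on day 5, which was called (limma adjusted p = 0.000727), and 0.74 on day 7 (0.0115), and with normexp 0.03 (0.974) and 0.28 (0.881). The dimmer probe changed by 0.26, 0.14 and 0.01, with intervals that reached no further than -0.33 and 0.73. It too depended on the setting, with changes of 0.1 to 0.62 on day 3, -0.41 to 0.49 on day 5 and -0.11 to 0.59 on day 7, none called.

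BCL2A1 encodes a survival protein of activated leukocytes and is known as a target of NF-kB. It read 8.73 to 10.58 before irradiation (median 10.04), 9.62, 9.84, 9.95 and 10.75 on day 3, 9.40 to 11.50 (median 10.55) on day 5 and 9.58 to 12.13 (median 10.98) on day 7. The groups overlapped on each day, though 5 of the 7 day 7 samples lay above all pre-irradiation samples. The change was 0.28 ± 0.36, 0.85 ± 0.36 and 1.19 ± 0.37 on days 3, 5 and 7 (limma adjusted p = 0.561, 0.084 and 0.0283), none of them called. All 6 animals measured on both days were higher on day 7 than on day 5, by 0.06 to 0.63.

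**Figure D3:**
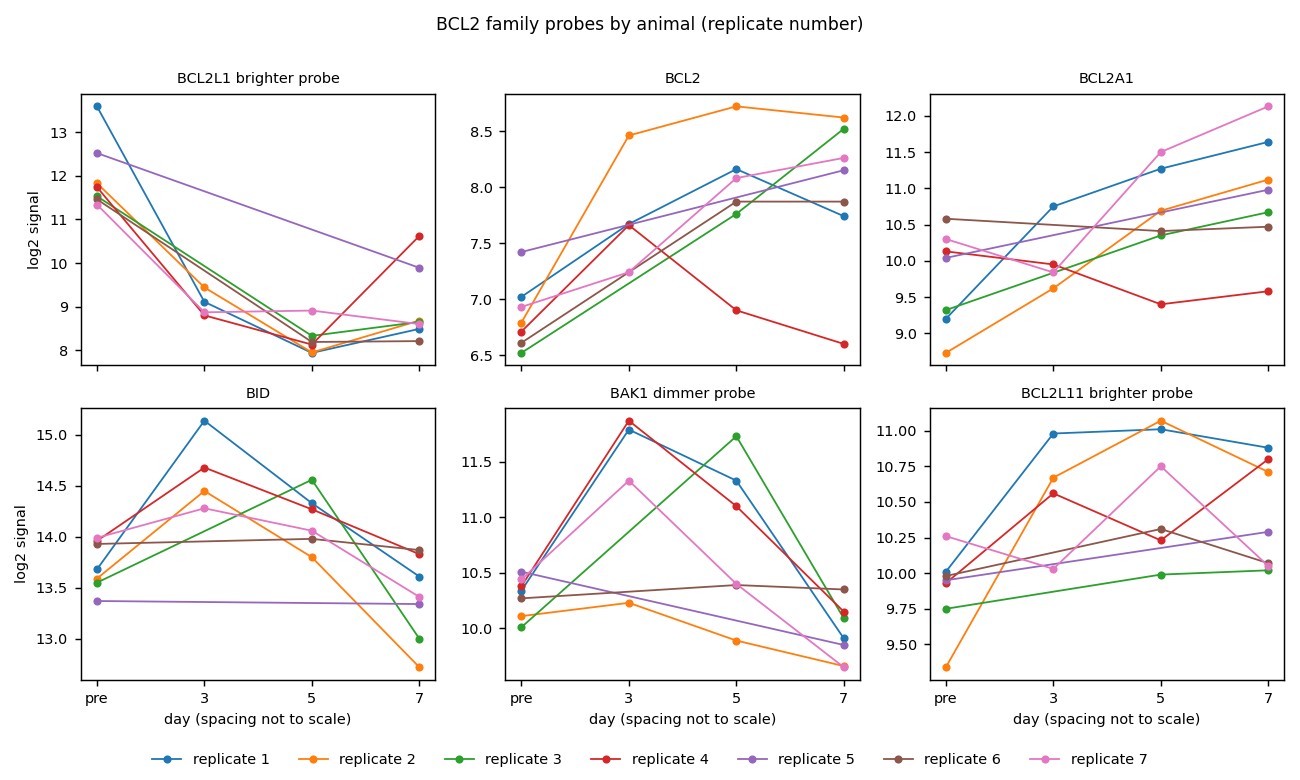
Log2 signal (y axis) of 6 probes by sampling day (x axis), with 1 line for each of the 7 animals, drawn straight across days on which an animal has no array. BCL2L1 drops in every animal, BID and the dimmer BAK1 probe are higher on day 3 or day 5 than on day 7, and replicate 4 parts from the others in BCL2 and BCL2A1 on days 5 and 7.

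BID links death receptors to the mitochondria: cut by caspase-8, it moves to the membrane and switches on the effectors. Its level was 13.37 to 13.99 before irradiation (median 13.68), 14.28, 14.45, 14.68 and 15.14 on day 3, 13.80 to 14.56 (median 14.17) on day 5 and 12.72 to 13.87 (median 13.41) on day 7. All 4 day 3 samples lay above all pre-irradiation samples, and the day 5 and day 7 samples overlapped with them. BID was 0.91 ± 0.20 higher on day 3 (n = 4 against 7; limma adjusted p = 0.00452), a 1.88-fold higher signal. This call was lost with the animal as a block (0.83; limma adjusted p = 0.0441) and without any 1 of the 7 animals (0.74 to 1.08; limma adjusted p = 0.00586 to 0.027). It was also lost on the authors' normalized values (0.95; limma adjusted p = 0.00533) and without the filter on dim probes (limma adjusted p = 0.0067), and held in 4 of 17 alternative settings. The change was 0.44 ± 0.16 on day 5 (limma adjusted p = 0.0432) and -0.32 ± 0.19 on day 7 (limma adjusted p = 0.228), neither called. On day 5 it was 0.64 and called with quantile normalization (limma adjusted p = 0.0031), 0.79 with the session block (0.136) and -0.11 with normexp (0.875).

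Within the animals, BID was higher than before irradiation in 4 of 4 on day 3 and 6 of 6 on day 5, and lower later. All 4 animals measured on days 3 and 5 were lower on day 5, all 6 measured on days 5 and 7 were lower on day 7, and all 7 were lower on day 7 than before irradiation, by 0.03 to 0.87. Over the alternative settings the mean change from pre-irradiation to day 7 ran from -0.37 to -0.02. Day 7 lay 1.24 ± 0.26 below day 3 (n = 7 against 4; limma adjusted p = 0.0111) with no overlap, which 12.1% of all probes also showed in either direction, and 0.77 ± 0.21 below day 5 (limma adjusted p = 0.0619). Neither passed the threshold. In a fit of all 4 groups, which share 1 estimate of the spread, the difference between day 7 and day 3 was called (limma adjusted p = 0.00047). That was the only 1 of 17 alternative settings to call it, with values from -1.36 to -0.96. The difference between day 7 and day 5 ran from -0.88 to -0.04 over 16 settings, none of which called it.

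The platelet markers described above were high on the same days as BID: 7, 1 and 0 of 7 were called higher on days 3, 5 and 7, with median changes of 3.06, 1.07 and 0.08. Some myeloid markers were higher too. Of 6 monocyte markers 2 were called higher on each day, and of 7 neutrophil markers 1 on days 3 and 5 and 0 on day 7 in limma. By comparison, 13.5%, 15.4% and 9.86% of all genes, each read by its brightest probe, were called in either direction on these days. The neutrophil counts lie near that share. The mean monocyte signal was 10.68 to 11.45 before irradiation, 12.07 to 12.87 on day 3, 11.68 to 12.54 on day 5 and 11.32 to 12.64 on day 7, still high on day 7 when BID was not. Of 4 genes of immature granulocytes, 1 was called lower on day 3 and 2 on days 5 and 7. The granule protease CTSG changed by -2.52, -2.88 and -2.57, with no day 3 or day 5 array and 1 day 7 array well above background. ELANE, neutrophil elastase, changed by -2.27 on day 5 and -2.39 on day 7. It was well above background on 3 of 7 pre-irradiation arrays and on 1 array each on days 5 and 7. The size of these falls is therefore uncertain. The other genes of that list were not called and had positive changes, of 1.36, 0.49 and 0.11 for MPO, myeloperoxidase, and 1.04, 1.0 and 0.64 for AZU1, azurocidin. The part of any of these cells in the BID level was not tested. The genes most like BID over the 24 arrays were PLEK (Pearson r 0.906), which encodes pleckstrin of platelets and leukocytes, PYCARD (0.889), which encodes the inflammasome adaptor ASC, and PPP1R18 (0.887), which encodes a phosphatase regulator. After each group's mean was subtracted r was 0.814, 0.823 and 0.684.

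BAK1, the effector, was measured by 2 probes that differ. The dimmer one, over the end of the coding sequence shown above, read 10.01 to 10.51 before irradiation, 10.23, 11.33, 11.79 and 11.87 on day 3, 9.89 to 11.73 on day 5 and 9.65 to 10.35 on day 7. On day 3, 3 of the 4 samples lay above all pre-irradiation samples, and replicate 2 did not. The change was 1.01 ± 0.28 on day 3 (limma adjusted p = 0.0147), 0.51 ± 0.26 on day 5 (0.137) and -0.34 ± 0.15 on day 7 (0.0983), none called. Without replicate 2 the day 3 change was 1.34 (limma adjusted p = 0.00184).

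The dimmer BAK1 probe lay 1.35 ± 0.30 lower on day 7 than on day 3 (limma adjusted p = 0.013) and 0.86 ± 0.27 lower than on day 5 (limma adjusted p = 0.0969). The difference from day 3 was called in the fit of all 4 groups (limma adjusted p = 0.00261) and without replicate 2 (-1.66, limma adjusted p = 0.00382). These were the only 2 of 17 alternative settings that called it, with values from -1.75 to -1.05. The difference from day 5 ran from -1.0 to -0.36 over 16 settings, none of which called it. All 4 animals measured on days 3 and 5 were lower on day 5, and all 6 measured on days 5 and 7 were lower on day 7, as they were for BID. The brighter probe, whose target is uncertain, changed by 0.43, 0.14 and 0.06 against pre-irradiation. The levels of the 2 probes had a Pearson r of 0.508 over the 24 arrays.

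The other BH3-only genes had no called change. BIK read 8.54 to 9.97 before irradiation and up to 10.83 on day 3, with changes of 0.74 ± 0.38, 0.54 ± 0.30 and 0.13 ± 0.28 on days 3, 5 and 7, and all 6 animals measured on both days were lower on day 7 than on day 5. The BMF probes changed by 0.65 and 0.39 on day 3, 0.46 and 0.05 on day 5 and -0.18 and -0.12 on day 7, and followed each other over the arrays as their shared bases would have it (Pearson r 0.851). Replicate 2 was the highest of its group on both BMF probes on days 3, 5 and 7. Its arrays also had the lowest median signal before scaling in those groups, at 38.0, 30.9 and 16.7. Before irradiation, replicate 5 was the highest on both BMF probes and the lowest in median signal, at 34.5. The part of array brightness in these values was not tested.

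BCL2L11 makes several transcripts, and its 2 probes were designed on different ones at chr13:110535985-110536044 and chr13:110536388-110536447. The brighter probe lay above pre-irradiation on each day, by 0.67 ± 0.21, 0.67 ± 0.21 and 0.51 ± 0.19 (limma adjusted p = 0.0291, 0.0208 and 0.0554). The dimmer one changed by 0.36 ± 0.28, -0.11 ± 0.33 and -0.45 ± 0.26. Their Pearson r was 0.144, so the probes do not give 1 answer for the gene, and neither was called.

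**Figure D4:**
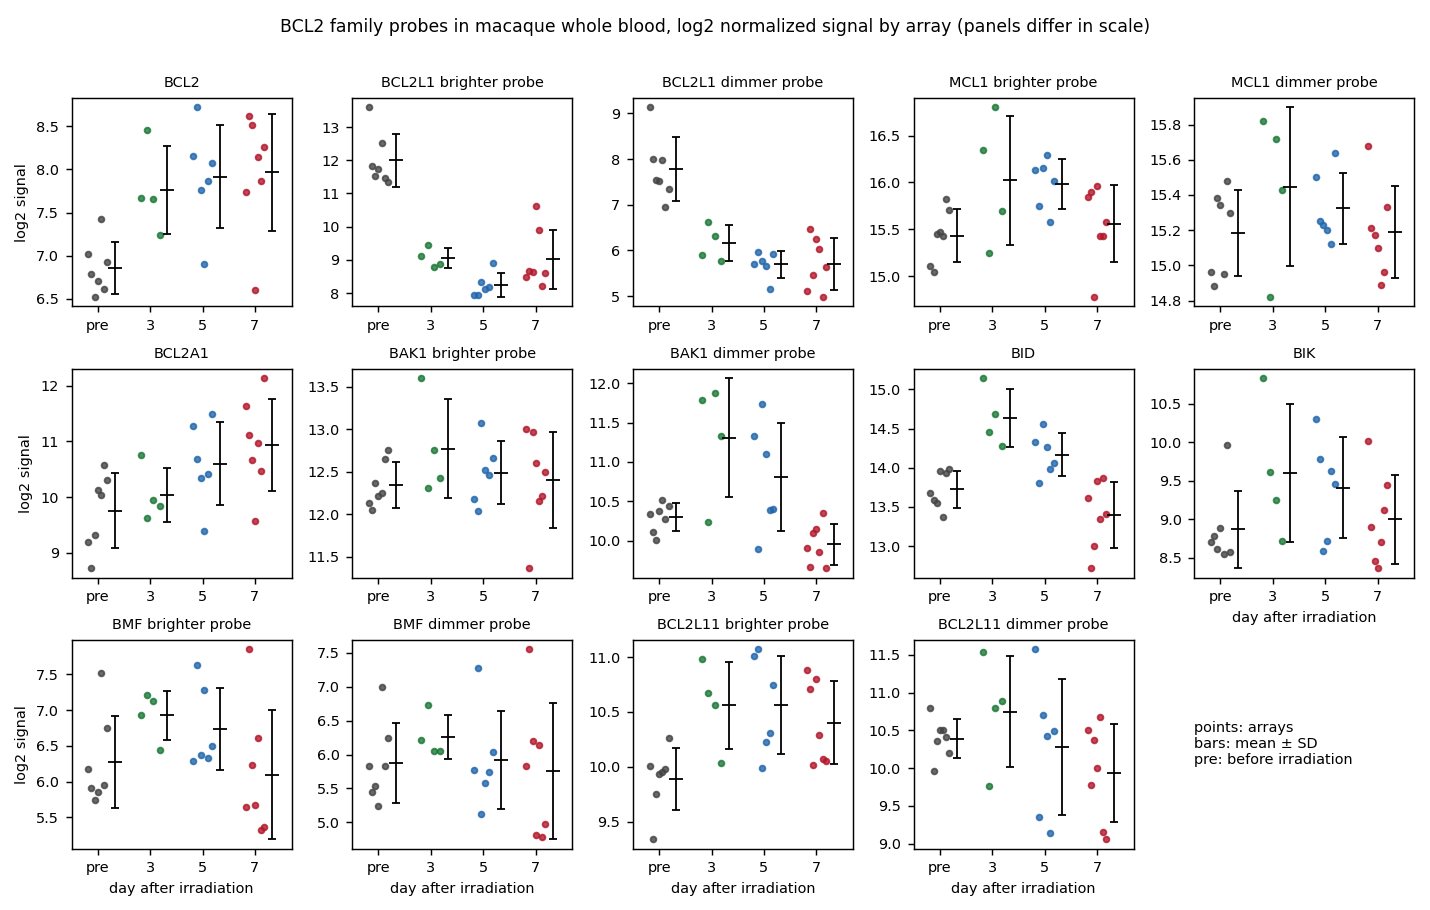
Log2 signal (y axis, a different scale in each panel) of the 14 probes by group (x axis: before irradiation and days 3, 5 and 7), with a point for each array and bars for mean ± SD. BCL2L1 is the gene whose probes both lie wholly below pre-irradiation after irradiation, from 11.34 and above to 10.62 and below for the brighter one.

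Directly between the irradiated days, 0 of the 14 probes were called in limma. At an unadjusted p under 0.05 there were 1, 2 and 3 for day 5 against day 3, day 7 against day 3 and day 7 against day 5: the brighter BCL2L1 probe, then BID and the dimmer BAK1 probe, then all 3. Of all probes, 0.0184%, 1.26% and 0.00369% were called, and 10.1%, 32.7% and 20.8% had an unadjusted p under 0.05. The median difference of the 14 probes was -0.24, -0.46 and -0.16, against 0.02, 0.01 and 0.02 over all probes.

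Males and females were compared in their change from pre-irradiation to day 7. No probe of the array passed an adjusted p under 0.05 for the interaction of sex and day in limma (0 of 27129), and so none of the family, with 2 of 14 at an unadjusted p under 0.05 (8.69% of all probes). Those were the dimmer BMF probe and the brighter BCL2L11 probe, with a female minus male difference of -1.64 and -0.77. For BCL2L1 the change in females differed from that in males by 0.19 (95% interval -1.71 to 2.09), for BCL2 by less than 0.005 (-1.24 to 1.24) and for BID by 0.18 (-0.69 to 1.05), intervals wide enough to hold large differences.

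Other family genes were read from a list of 14, of which 10 had a probe and 8 were tested. On each day 1 was called lower and none higher, where 13.5%, 15.4% and 9.86% of all genes, each read by its brightest probe, were called on days 3, 5 and 7. That was BNIP3L, also called NIX, which marks mitochondria for removal as red cells mature: its change was -2.93 ± 0.28, -3.88 ± 0.29 and -3.65 ± 0.39 on days 3, 5 and 7 (limma adjusted p = 5.78e-05, 5.44e-07 and 1.65e-05). BAX, the partner effector of BAK1, named for its role after its values were seen, changed by 0.78 ± 0.21, -0.40 ± 0.37 and 0.23 ± 0.43 (limma adjusted p = 0.0128, 0.427 and 0.726). The median change over the 8 genes was -0.03, -0.27 and -0.11.

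Downstream of the membrane, 14 of 18 listed genes of the mitochondrial death pathway were tested. On day 3, 0 were called higher and 2 lower in limma: BIRC3, an inhibitor of apoptosis and ubiquitin ligase, changed by -1.5 ± 0.19 (adjusted p = 0.000308), and ENDOG, a mitochondrial nuclease, fell by 1.08 ± 0.19 (adjusted p = 0.00162). On day 5, XIAP, the inhibitor of caspases, was 0.83 ± 0.18 higher (adjusted p = 0.00262) and ENDOG fell by 0.95 ± 0.14 (adjusted p = 0.000184). On day 7, 0 were called. Among all genes, each read by its brightest probe, 13.5%, 15.4% and 9.86% were called on the 3 days. These counts therefore say nothing particular about the pathway. APAF1, the scaffold of the apoptosome, likewise named for its role, changed by 0.21, 0.43 and 0.50, and the median over the 14 genes was -0.05, -0.01 and 0.05.

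Scan session touches the day 3 and day 5 results, since session 2 held 1 pre-irradiation array. With session as a block, so that these comparisons rest on that array, the brighter BCL2L1 probe changed by -3.47 on day 3 (limma adjusted p = 0.0264) and by -4.28 on day 5 (limma adjusted p = 0.00214). BID changed by 1.26 on day 3. The dimmer BCL2L1 probe lost its calls on days 3 and 5 in these fits. Within session 1, where day 7 and pre-irradiation had 6 arrays each, the brighter BCL2L1 probe changed by -3.04 (limma adjusted p = 0.00054), its dimmer probe by -2.10 (0.0015) and BCL2 by 1.17 (0.0135). The comparisons of day 7 with days 3 and 5 cross sessions. Of the 7 day 7 arrays 6 were in session 1, and all day 3 and day 5 arrays were in session 2.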

How the data were processed

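Blood RNA of 24 samples was hybridised to Agilent rhesus 4-array slides. The authors extracted spot intensity with Agilent Feature Extraction (version 10.7 per the labels, 12.0.2.2 per the file headers). The deposited series table holds log2 values that the authors normalized to the median array, and was used as an alternative for 11 of the 14 probes. Sequences and rheMac2 positions are those of the scanner output. The study's methods name a human array, whereas the labels and the file headers give a rhesus design; probes were read as the latter, so what each probe measures rests on the file headers.

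From the scanner files, log2 processed signal was shifted to the median array, outlier spots were left out (0 of the member spots) and a probe was kept if 4 or more of the 24 arrays read it well above background. Each pair of groups was fitted with limma 3.58.1 in R 4.3.3, as a test of either direction, with Benjamini-Hochberg adjustment over all probes and a threshold of 0.005 (0.05 for sex). The fitting was tested on simulated data. Replicate numbers were taken to mark the same animals. Deviations of same-numbered samples from group means correlated at 0.132 or more in every pair. That cannot show identity, since differently numbered pairs were not compared and same-numbered pre-irradiation and day 7 arrays shared a slide. The animal as a block was an alternative (closing section), and is not in the values of the report.

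Members and gene lists were chosen with earlier results of these data known, so nothing here is independent of those. All members were named, for other lists no more than the 4 called genes with the largest change, and the 3 genes most like a called member. BAX, APAF1, MPO and AZU1 were named outside this rule and were not called. Gene symbols are those of the array's design, and 898 further probes were named through RefSeq accessions; 19651 probes have no symbol. PMAIP1 had no probe by name or accession. The number of arrays limits the precision.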

Additional observations from a re-analysis of the deposited data

Results flagged for a closer look

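In pre-irradiation blood, the BIK level of replicate 6 was 9.97, while the next highest of the 7 animals was 8.89 and the gap took 0.76 of the group's whole range, against 0.568 as the 95% critical value for 7 samples. It was flagged as a sample far from the others. Chance flags about 1 in 20 groups, and 1 of 56 groups of arrays was flagged here.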

How the results depend on the processing

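On day 3, 3 member probes were called, against 0 with normexp background, 2 on the authors' normalized values (BID lost), 1 without the filter on dim probes, 1 with the replicate block, 0 with the slide and 0 with the scan session as a block, 6 at an adjusted p under 0.05, and 1 to 2 without 1 replicate. On day 5, 3 were called, against 5 with quantile normalization (BID and the brighter MCL1 probe added), 1 with normexp, 1 with the session block, 6 at 0.05, 2 without the filter on dim probes and 2 in 1 fit of all 4 groups (BCL2 lost in both), and 2 to 3 without 1 replicate. On day 7, 2 were called, against 1 with normexp, 4 at 0.05 (BCL2 and BCL2A1 added), 3 in the fit of all 4 groups (BCL2 added), and 2 to 3 without 1 replicate, where leaving out replicate 4 added BCL2. For day 7 against day 3, 0 were called, against 2 in 1 fit of all 4 groups and 2 at 0.05 (BID and the dimmer BAK1 probe), and 0 to 1 without 1 replicate, where leaving out replicate 2 added the dimmer BAK1 probe. With the animal as a replicate block, 1, 3 and 2 probes were called on days 3, 5 and 7 and 0 between days; beside the day 3 calls of BID and the dimmer BCL2L1 probe it changed no other call of a member. Over all probes, 3652, 4543 and 2951 were called on days 3, 5 and 7, against 139, 239 and 315 with normexp, 37, 383 and 2916 with the session block, and 751, 4171 and 2329 with the replicate block. For day 7 against day 3, 343 were called, against 2177 in the fit of all 4 groups, 6 with normexp, 0 with the replicate, slide or session block, and 0 to 246 without 1 replicate (0 without replicate 1). The cause was not tested. At a limma adjusted p under 0.05, 9691 of 27127 probes were called on day 3 and 9629 of 27133 on day 5. The 6 of 14 member probes on each of these days lie near those shares and say nothing particular about the family.

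The brighter BCL2L1 probe kept its direction in every setting run and its call in 14 of 17, 16 of 16 and 17 of 17 settings on days 3, 5 and 7; the settings that lost it were normexp, slide and session on day 3. Of 788 single alternative values 24 changed sign, all of changes that were not called. On day 3 these were BCL2A1 with the slide block (-0.14), the brighter BMF probe with slide (-0.74) and session (-0.60), and the dimmer one with slide (-0.94) and session (-0.73). On day 5 they were, with normexp, the dimmer MCL1 probe (-0.41), the brighter BAK1 probe (-0.31) and BID (-0.11); with session, the BMF probes (-0.79 and -1.07); and with quantile normalization the dimmer BMF probe (-0.01). Without 1 replicate, BCL2A1 on day 3 ranged from -0.05 to 0.44, and on day 5 the dimmer BMF probe from -0.29 to 0.24 and the dimmer BCL2L11 probe from -0.30 to 0.12. On day 7 the range was -0.11 to 0.09 for the dimmer MCL1 probe, -0.08 to 0.18 for the brighter BAK1 probe, -0.06 to 0.30 for BIK, and -0.53 to 0.03 and -0.49 to 0.07 for the brighter and dimmer BMF probes. No slide held day 5 with pre-irradiation or day 7 arrays, and days 3 and 5 shared 1 session, so those blocks could not be fitted. Signal over background limits the dimmer BCL2L1 and BMF probes.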
